A study of Mus musculus with 12 samples.

Results

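The Cyp4a fatty acid hydroxylase genes and 5 genes that respond quickly to the nuclear receptor PPAR-alpha were followed in liver RNA from female and male mice. The 9 genes were taken by identifier from a table of 19852 genes: Cyp4a10, Cyp4a14, Cyp4a12a and Cyp4a12b among the Cyp4a genes, and Vnn1, Acot1, Pdk4, Fgf21 and Angptl4 among the acute targets. Each had a row of its own, and 8 of them entered the test across genes. Fgf21 was too low for it, since a gene had to reach 0.5 RPKM (reads scaled to transcript length and library size) in at least 3 libraries.

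The animals were C57BL/6 mice aged 20 weeks. In the ARE-Del animals, which the extraction protocol writes as ARE-Del-/-, interferon gamma is expressed chronically, and the controls (WT) were littermates. The 12 RNA-seq libraries, made from whole liver, fell into female WT, female ARE-Del, male WT and male ARE-Del groups of 3 each. The comparisons ask how the genotype changed these genes in each sex, and how the sexes differed in each genotype.

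PPAR-alpha is a receptor for fatty acids and fibrate drugs that binds DNA together with a retinoid X receptor. In liver it switches on fatty acid transport, oxidation and ketone body formation, most of all in fasting, and it is the receptor behind the peroxisome proliferation that fibrates cause in rodents. Cyp4a10 and Cyp4a14 encode microsomal enzymes that hydroxylate fatty acids at the omega end and are among the most responsive PPAR-alpha targets in mouse liver. Cyp4a12a and Cyp4a12b encode closely related hydroxylases, known for their male-biased expression and for making 20-HETE from arachidonic acid. Vnn1 encodes a pantetheinase, Acot1 a cytosolic acyl-CoA thioesterase, Pdk4 a kinase that inhibits pyruvate dehydrogenase, Fgf21 a hormone of fasting, and Angptl4 a secreted inhibitor of lipoprotein lipase.

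The Cyp4a genes neighbour each other in one cluster, and the similarity of their sequences bears on how far reads can be assigned to one copy. The coding sequences of Cyp4a12a and Cyp4a12b, read as the longest open reading frames of GENCODE M21 transcripts of the reference mouse genome, were both 1527 bases long and differed at 23 of them (98.5% identity). Of the 50-base words of one, 54.9% also occurred in the other, and the longest identical run was 342 bases. The stretch of 90 bases from position 661 to 750 of the coding sequence holds 7 of the differences and shows how close the copies are. It is printed 5′ to 3′ on the coding strand, with the differing bases in capitals:
Cyp4a12a: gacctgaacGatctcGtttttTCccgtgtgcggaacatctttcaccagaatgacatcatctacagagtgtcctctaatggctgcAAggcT
Cyp4a12b: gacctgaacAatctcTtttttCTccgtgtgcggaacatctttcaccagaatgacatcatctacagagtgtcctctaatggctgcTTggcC

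Cyp4a10 was 97.2% identical to its neighbour Cyp4a32, with 34.8% of its 50-base words shared, and 96.6% identical to Cyp4a31, which was not analysed here. Acot1 was 85.5% identical to Acot2, with 43.5% of its words shared. It also shared 14.1% of its words with Acot3 and 7.02% with Acot4. Cyp4a14 was at most 76.2% identical to any other Cyp4a gene compared and shared no 50-base word with them. The treatment of reads that match several copies is not given in the sources used here, so the split between Cyp4a12a and Cyp4a12b, and part of the values of Cyp4a10 and Acot1, are uncertain. RefSeq promoters (GRCm38.p6, from 250 bases before to 50 after the start) were matched for 3 of the 9 genes: Acot1, Pdk4 and Fgf21. On both strands, none of these 3 held AGGTCA, the half-site of the PPAR element, nor therefore the element known as DR1, made of 2 such half-sites with 1 base between. Of 32851 promoters of that length, 16.3% held the half-site and 0.0396% the element. At such shares no match is a likely outcome for any 3 promoters, and only exact matches were sought. The search therefore does not show that these genes lack a PPAR element.

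RPKM summed over all genes was 173476 to 208647 per library. Depth relative to female WT 1, estimated from the steps between low values, was 0.908 to 1.45. Hepatocyte markers such as Alb were high in every library (summed RPKM of 13 genes 26050 to 49430). One library nearly lacked an RNA of female cells. Female ARE-Del 2 had 0.0456 RPKM of Xist, the X-inactivation RNA, against 33.0 to 45.6 in the other female libraries. Ddx3y, a Y-linked gene, was at 0 in it, as in the other female libraries. The reason was not tested, and the library was kept as labelled. Calls and list counts for the female genotype that changed without it are given both ways. ARE-Del libraries also held more RNA of immune cells. The summed RPKM of 10 monocyte and macrophage markers ran from 25.5 to 42.7 in female WT, from 202 to 250 in female ARE-Del, from 17.3 to 33.4 in male WT and from 118 to 146 in male ARE-Del. In whole liver, fewer cells of a type and less RNA per cell cannot be told apart.

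In females, ARE-Del livers had less RNA of Cyp4a14, Vnn1, Acot1 and Cyp4a10 than WT livers, and in males of Cyp4a14 and Vnn1. Log2(RPKM + 1) values were fitted with limma, and a change was called at a Benjamini-Hochberg adjusted p below 0.05. In females 4 of the 8 tested genes fell and 0 rose, where 5.53% of all 10568 tested genes fell and 25.8% rose. The 8 include Cyp4a12a and Cyp4a12b, which lay near 0 RPKM in females and entered the test through the male libraries. In males 2 of 8 fell and 0 rose, where 2.04% of all tested genes fell and 19.5% rose. The same 4 and 2 genes were lower in every ARE-Del library than in any WT library, as were 8.66% of tested genes in females and 5.43% in males. The median change over all tested genes was 0.09 in females and 0.10 in males.

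**Figure D1:**
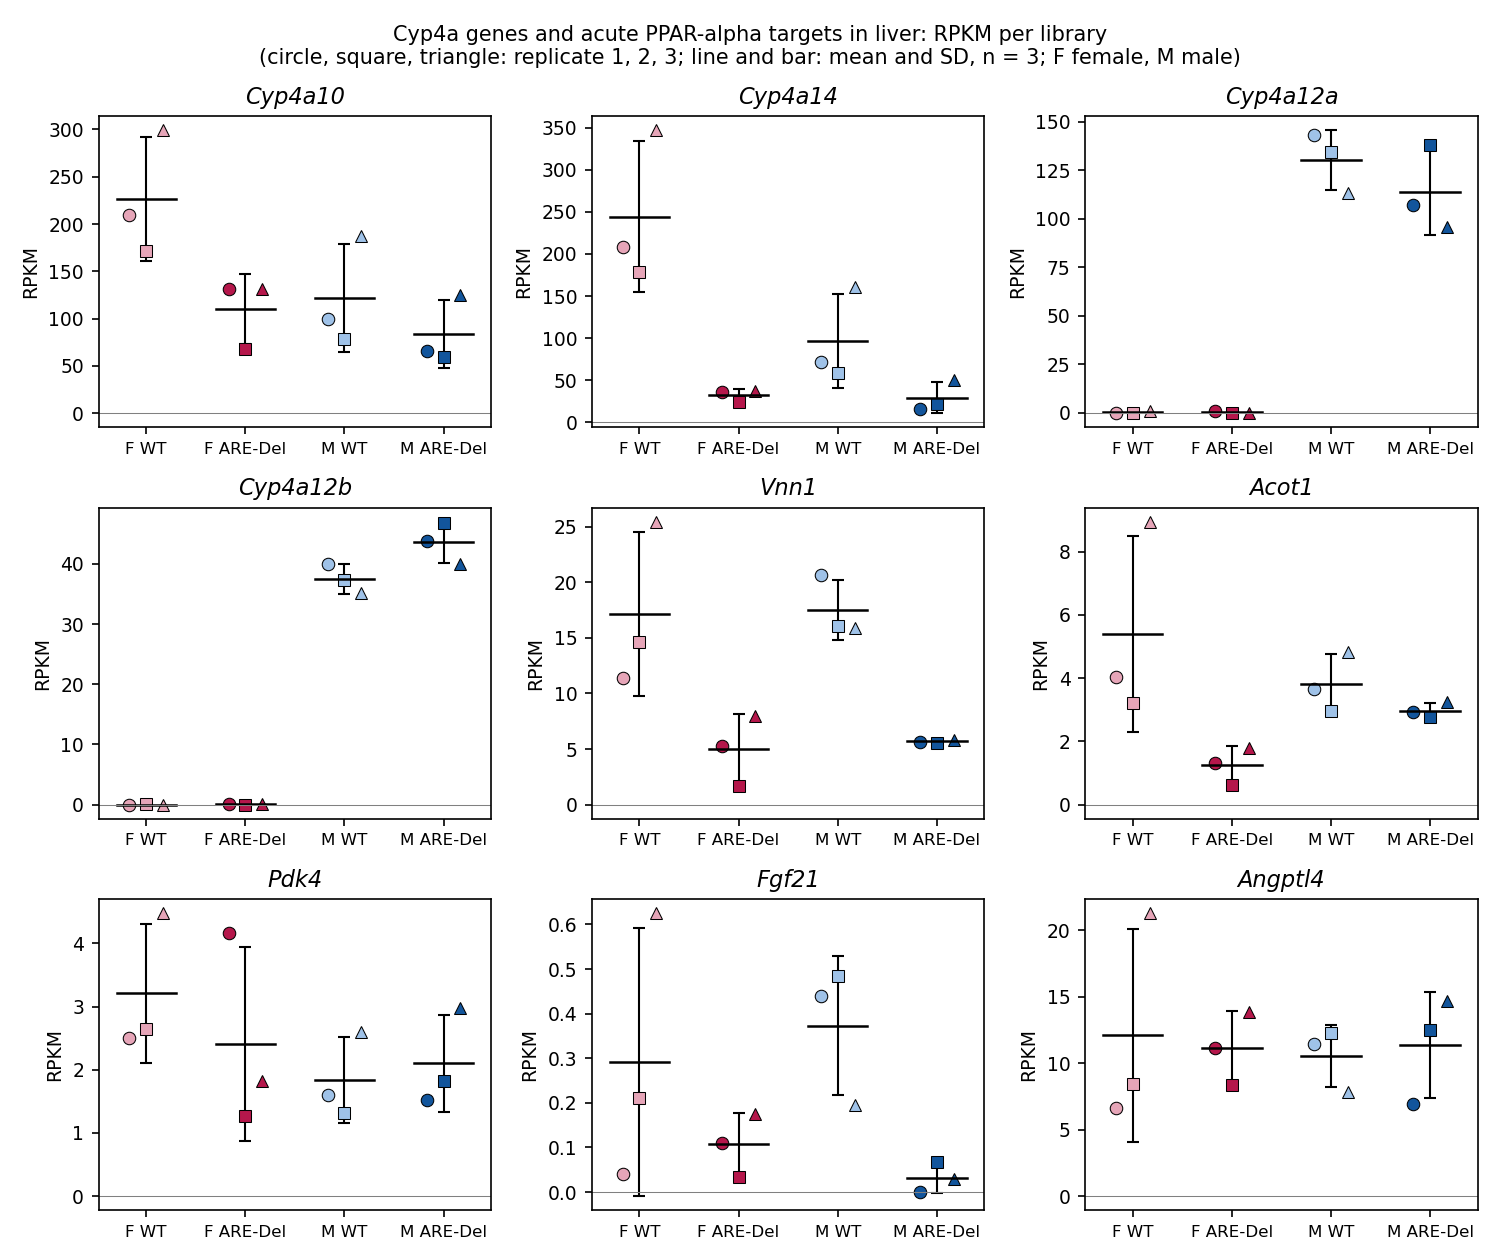
RPKM of the 9 genes in each of the 12 libraries, by group (F female, M male); circles, squares and triangles are replicates 1, 2 and 3, and lines and bars are the mean and SD of 3. Cyp4a14 and Vnn1 are lower in every ARE-Del library than in every WT library of the same sex, and Cyp4a12a and Cyp4a12b lie near 0 in all female libraries.

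Cyp4a14 changed the most. Female WT libraries held 208.2, 178.1 and 346.7 RPKM and female ARE-Del libraries 36.31, 24.59 and 37.28. The lowest WT library was thus well above the highest ARE-Del library, and the group means stood 7.47-fold apart (244.3 ± 89.9 against 32.7 ± 7.06 RPKM, SD, n = 3 each). The fall was 2.83 on the log2 scale, at -2.83 ± 0.43 (SE), with an adjusted p of 0.0003 in limma, and only 4 of all tested genes had a lower value. Leaving out female ARE-Del 2 gave -2.64 (adjusted p = 0.00184). Male WT libraries held 71.44, 58.06 and 161.0 RPKM and male ARE-Del libraries 16.01, 21.36 and 50.16. These groups did not overlap either, although male WT 3 and male ARE-Del 3 were each more than 2 times the other libraries of their group. The male change was -1.72 ± 0.43 (adjusted p = 0.0143), the sixth lowest of all tested genes. The male call was lost without male WT 3 or without male ARE-Del 1, at adjusted p up to 0.0569.

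Cyp4a10 stood near Cyp4a14 in WT females and changed less. Female WT libraries held 209.6, 171.5 and 298.9 RPKM and female ARE-Del libraries 131.1, 67.69 and 131.4. The groups did not overlap, but the gap was small, and female ARE-Del 2 was far below the other libraries of its group. Group means were 226.7 ± 65.4 and 110.1 ± 36.7 RPKM, a 2.06-fold difference, and the log2 change was -1.06 ± 0.37 (limma adjusted p = 0.0463). Leaving out 1 library at a time kept that call in 5 of 12 cases, and it was lost with no filter on low genes. Without female ARE-Del 2 the change was -0.745 with an adjusted p of 0.163. Male WT libraries held 99.66, 78.58 and 187.1 RPKM and male ARE-Del libraries 65.43, 59.94 and 125.2. The male groups overlapped, and the change of -0.52 ± 0.37 missed the threshold (adjusted p = 0.345). Its near copy Cyp4a32 had mean levels of 6.05 RPKM in WT females and 5.94 in ARE-Del females, a change of 0.00 ± 0.22.

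The ratio of Cyp4a14 to Cyp4a10 within a library is not changed by a factor applied to the whole library. RPKM divides by transcript length, so the levels of the 2 genes can be compared in that respect. Whether reads shared with Cyp4a32 or Cyp4a31 changed the Cyp4a10 values, and so the ratio, was not tested. Female WT libraries had ratios of 0.994, 1.04 and 1.16, and female ARE-Del libraries of 0.277, 0.363 and 0.284. Male WT libraries had ratios of 0.717, 0.739 and 0.860, and male ARE-Del libraries of 0.245, 0.356 and 0.401. Every ARE-Del library was below every WT library, in either sex, and the 6 ARE-Del libraries lay between 0.245 and 0.401 although their Cyp4a10 levels ranged from 59.94 to 131.4 RPKM. The mean log2 ratio was 1.52 lower in ARE-Del, a difference of -1.52 with a 2-sided p of 0.005 in an exact permutation test stratified by sex, the smallest that its 400 arrangements can give. It was -1.58 without female ARE-Del 2, at the same p. Within females it was -1.80 and within males -1.24, each at an exact permutation p of 0.1, the smallest that 3 against 3 allows. Between female and male ARE-Del libraries the difference was -0.10 (exact permutation p = 0.9). This ratio was chosen after the values were seen.

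**Figure D2:**
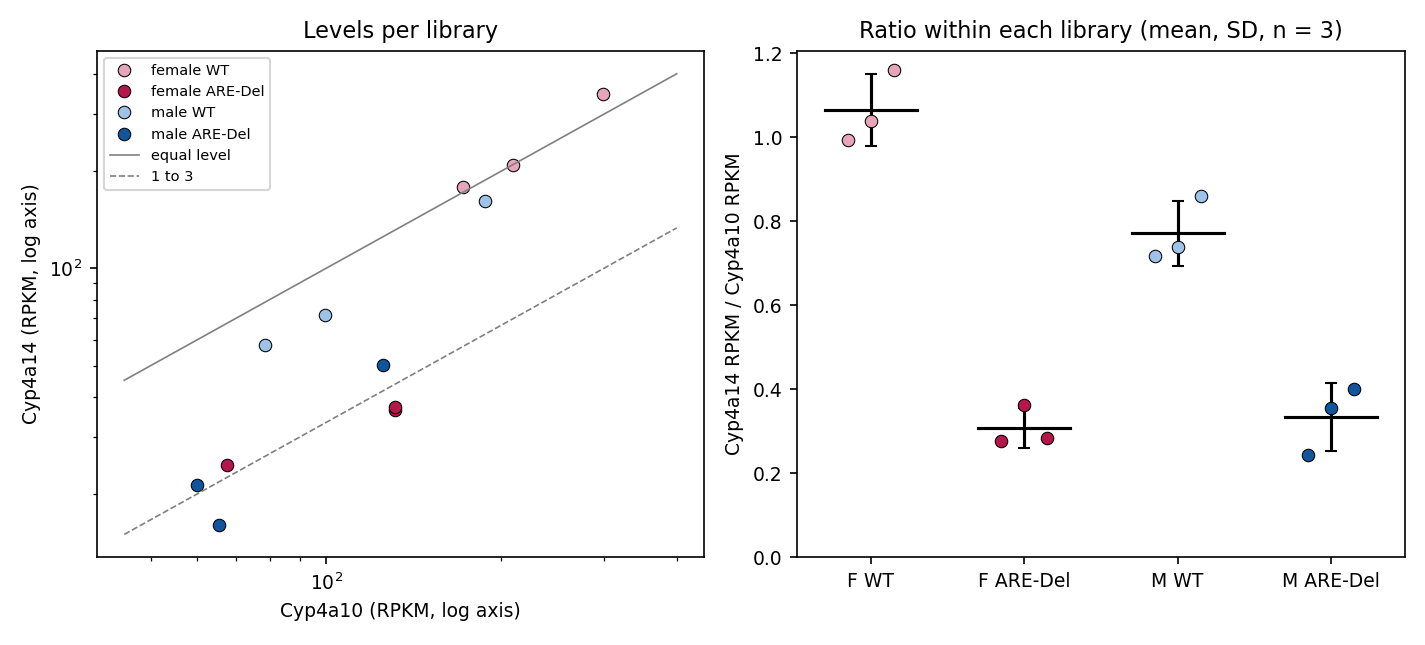
Left, Cyp4a14 against Cyp4a10 RPKM in each library (both axes logarithmic; lines mark equal levels and a level of 1 to 3). Right, the ratio of the 2 in each library with the mean and SD of 3; WT libraries lie between 0.717 and 1.16 and ARE-Del libraries between 0.245 and 0.401.

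Cyp4a12a and Cyp4a12b were male genes in both genotypes and did not pass the test for genotype. Male WT libraries had 143, 134.3 and 113.1 RPKM of Cyp4a12a, and male ARE-Del libraries 107.2, 138.1 and 95.53. These ranges overlapped, and the change was -0.20 ± 0.27 (limma adjusted p = 0.626). For Cyp4a12b the values were 40.02, 37.36 and 35.07 RPKM in WT males, against 43.85, 46.81 and 40.00 in ARE-Del males. The lowest ARE-Del library equalled the highest WT library to 3 digits, and the change of 0.21 ± 0.07 missed the threshold (adjusted p = 0.0557), which it passed without male ARE-Del 3 or without the variance trend. Female libraries held 0.855 RPKM of Cyp4a12a at most in WT, where 1 library was listed at 0, and 1.13 at most in ARE-Del. For Cyp4a12b the highest female value was 0.0925 RPKM, in female ARE-Del 1, which was also the highest for Cyp4a12a. Both genes passed the filter on low genes through the male libraries. At such low female levels the test says little about a genotype change in females.

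In males the ratio of Cyp4a12a to Cyp4a12b was 3.57, 3.60 and 3.23 in WT and 2.45, 2.95 and 2.39 in ARE-Del, without overlap. Because the copies are nearly identical, that ratio depends on how shared reads were split. Their sum does not depend on the split between the 2 copies, apart from their lengths, at 167.6 ± 17.8 RPKM in WT and 157.2 ± 25.3 in ARE-Del males (difference of log2 means -0.10, exact permutation p = 0.7, 3 against 3). As a share of the 4 Cyp4a genes, the pair made 29.9% to 55.7% in WT males and 43.6% to 69.5% in ARE-Del males, ranges that overlapped. The 4 genes together came to 471.3 ± 155 RPKM in WT females against 143.3 ± 44.1 in ARE-Del females, and to 386.2 ± 98.0 in WT males against 269.9 ± 39.3 in ARE-Del males. The female ranges did not overlap, while the male ranges did (308.3 to 496.3 RPKM in WT and 232.5 to 310.9 in ARE-Del). The log2 of this sum differed by -1.72 in females (exact permutation p = 0.1, the smallest that 3 against 3 allows) and by -0.50 in males (exact permutation p = 0.2). Over both sexes it was lower in ARE-Del by -1.11 (exact permutation p = 0.01, stratified by sex), or by -0.97 without female ARE-Del 2 (exact permutation p = 0.01).

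Vnn1, which splits pantetheine into cysteamine and vitamin B5, fell in both sexes. Female WT libraries held 11.36, 14.66 and 25.43 RPKM and female ARE-Del libraries 5.262, 1.655 and 7.995. The groups were apart, with female ARE-Del 2 again the lowest, and the change was -1.70 ± 0.36 (limma adjusted p = 0.0035), or -1.20 without that library (adjusted p = 0.00521). Male WT libraries held 20.64, 16.09 and 15.85 RPKM and male ARE-Del libraries 5.628, 5.568 and 5.852. The male ARE-Del values were close to each other (5.68 ± 0.15 RPKM, against 17.5 ± 2.70 in WT), and the change was -1.46 ± 0.36 (adjusted p = 0.0141). That call was lost without male WT 1, at an adjusted p of 0.0609. The SE rests on the spread within all 4 groups, so it does not show how close the male values were. Without female ARE-Del 2 the male change was -1.46 ± 0.23 (limma adjusted p = 0.00109). Vnn3, a neighbouring vanin gene of the same family, did not pass in either sex (-0.21 ± 0.13 in females and -0.09 ± 0.13 in males).

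Acot1, whose product releases free fatty acids from acyl-CoA, was called in females alone. Female WT libraries held 4.041, 3.215 and 8.938 RPKM and female ARE-Del libraries 1.319, 0.6085 and 1.805. The groups did not overlap, female WT 3 was more than 2 times the other WT libraries, and the change was -1.45 ± 0.28 (limma adjusted p = 0.00173; -1.22 without female ARE-Del 2). Male WT libraries held 3.658, 2.947 and 4.839 RPKM and male ARE-Del libraries 2.912, 2.766 and 3.242. The male ranges overlapped, and the change was -0.26 ± 0.28 (adjusted p = 0.54). The female change was -1.19 ± 0.39 below the male change at an unadjusted p of 0.0108, which missed the threshold after adjustment over all genes (limma adjusted p = 0.226). That difference was -0.96 without female ARE-Del 2 (adjusted p = 0.361). Acot3, which shares part of the Acot1 sequence, had means of 16.5 RPKM in WT and 7.80 in ARE-Del females. In males its means were 0.41 and 0.31 RPKM. Whether Acot3 reads entered the Acot1 values was not tested.

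No tested gene of the 8 passed for a difference between the female and the male change, where 0.568% of all tested genes did. At an unadjusted p below 0.05, only Acot1 did. For Cyp4a14 the difference was -1.11 ± 0.61 (adjusted p = 0.553), for Cyp4a10 -0.54 ± 0.52 (adjusted p = 0.811) and for Vnn1 -0.24 ± 0.52 (adjusted p = 0.935). Calls in one sex alone, as for Acot1 and Cyp4a10, therefore do not show that the sexes differed.

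**Figure D3:**
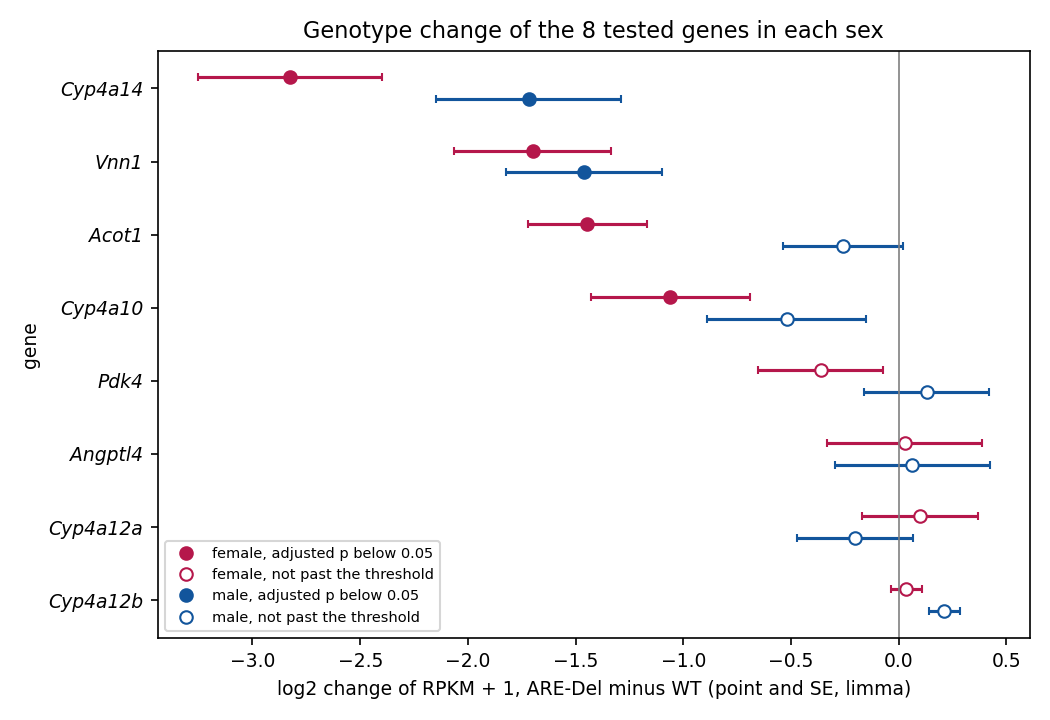
Log2 change of RPKM + 1 from WT to ARE-Del for the 8 tested genes in females and males, with the SE from limma; filled points passed an adjusted p of 0.05. Cyp4a14 and Vnn1 are filled in both sexes, Acot1 and Cyp4a10 in females, and Pdk4, Angptl4, Cyp4a12a and Cyp4a12b in neither. Cyp4a12a and Cyp4a12b lay near 0 RPKM in females, so their female points say little about genotype.

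Pdk4, Angptl4 and Fgf21 are targets that also respond to fasting hormones. Pdk4 was at 2.499, 2.649 and 4.478 RPKM in WT females and 4.160, 1.261 and 1.817 in ARE-Del females. Male WT libraries held 1.598, 1.309 and 2.600 RPKM of it, and male ARE-Del libraries 1.515, 1.828 and 2.970. The groups overlapped in both sexes, with changes of -0.36 ± 0.29 (limma adjusted p = 0.368) and 0.13 ± 0.29 (adjusted p = 0.786). The interval of 2 SE on either side ran from -0.94 to 0.22 in females and from -0.45 to 0.71 in males, so a change of the size seen for Cyp4a14 lay outside it. The male direction was reversed under quantile normalization.

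Angptl4 was at 6.605, 8.421 and 21.29 RPKM in WT females and 11.18, 8.326 and 13.87 in ARE-Del females. WT males held 11.47, 12.29 and 7.863 RPKM, and ARE-Del males 6.924, 12.50 and 14.66. All 4 groups overlapped, with means from 10.5 to 12.1 RPKM, and the changes of 0.03 ± 0.36 and 0.06 ± 0.36 turned negative under either other scaling. The interval of 2 SE ran from -0.70 to 0.75 in females.

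Fgf21 was low in every library. WT females held 0.03997, 0.2109 and 0.625 RPKM, and ARE-Del females 0.110, 0.0345 and 0.1757. WT males held 0.4406, 0.4837 and 0.1952 RPKM, and ARE-Del males 0.0672 and 0.0285, with the third library listed at 0. The male groups did not overlap, and the female groups did. On the log2(RPKM + 1) scale ARE-Del was lower by -0.20 in females (exact permutation p = 0.4) and -0.41 in males (p = 0.1, the smallest possible), and by -0.30 stratified by sex (exact permutation p = 0.025, 2-sided). That last p rose to 0.055 without female WT 3 or male ARE-Del 1, to 0.075 without female ARE-Del 2, and to 0.05 without female ARE-Del 1. Without the filter on low genes, limma gave an adjusted p of 0.386 in females and 0.112 in males.

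Between the sexes, the Cyp4a12 pair separated all female from all male libraries. In WT, 2 of the 8 tested genes were lower in females, Cyp4a12a and Cyp4a12b, where 3.04% of all tested genes were. Both passed the filter on low genes only through the male libraries, so the count cannot be weighed against that share. Cyp4a12a was lower by -6.67 ± 0.27 (limma adjusted p = 8.1e-09), the lowest value of all tested genes, and Cyp4a12b by -5.24 ± 0.07 (adjusted p = 2.8e-13). The added 1 RPKM makes these values smaller than the log2 ratios. Cyp4a14 went the other way. Every WT female library was above every WT male library for Cyp4a14, a pattern that 18.9% of tested genes showed, but the difference of 1.41 ± 0.43 missed the threshold (adjusted p = 0.0591). Cyp4a10 overlapped between the sexes (0.95 ± 0.37, adjusted p = 0.13). Without male WT 3 or male ARE-Del 3 the Cyp4a14 difference passed. With a replicate block both Cyp4a14 and Cyp4a10 passed, although the replicate numbers did not pair the samples.

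In ARE-Del, 3 of the 8 were lower in females, where 6.02% of all tested genes were. Cyp4a12a and Cyp4a12b are among the 3, and for them the same limit of the filter holds. Cyp4a12a was lower by -6.37 ± 0.27 and Cyp4a12b by -5.41 ± 0.07 (limma adjusted p = 1.4e-08 and 1.9e-13). Acot1 was lower by -0.86 ± 0.28 (adjusted p = 0.0444), without overlap between the groups, as for 13.1% of tested genes. Leaving out 1 library at a time kept that call in 4 of 12 cases, and without female ARE-Del 2 it was -0.64 (adjusted p = 0.148). Cyp4a14 was at 32.7 RPKM in female and 29.2 in male ARE-Del (0.30 ± 0.43, adjusted p = 0.66). The order of the Cyp4a14 group means was female WT, male WT, female ARE-Del and male ARE-Del, and the last 2 overlapped. For Vnn1 the 2 WT means, 17.5 in males and 17.2 in females, overlapped, as did the 2 ARE-Del means. Comparisons of sex and of genotype share libraries and are not independent of each other.

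Libraries of one group did not vary independently from gene to gene. Over the 7 genes outside the Cyp4a12 pair, female WT 3 was the highest of its group in 7 of 7, and female ARE-Del 2 the lowest in 7 of 7. Female ARE-Del 3 and male ARE-Del 3 were each the highest in 6 of 7. Male WT 3 was split: highest for Cyp4a10, Cyp4a14, Acot1 and Pdk4 and lowest for Vnn1, Fgf21 and Angptl4. For Cyp4a14 its deviation from the group mean was 0.87 on the log2 scale, and that of male ARE-Del 3 was 0.93. The 7 genes are therefore not 7 separate observations of the genotype.

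**Figure D4:**
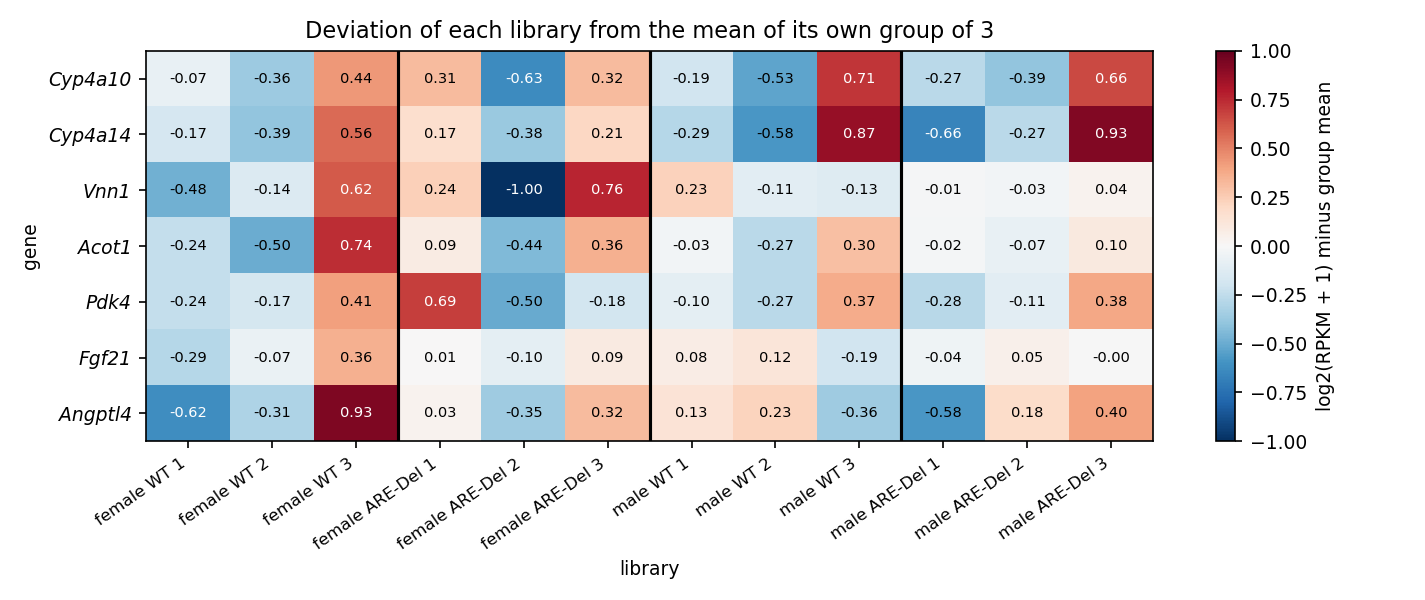
Deviation of each library from the mean of its own group of 3, in log2(RPKM + 1), for the 7 genes outside the Cyp4a12 pair; red is above and blue below the group mean. Female WT 3 is red in all 7 rows and female ARE-Del 2 blue in all 7.

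The receptor itself did not pass. The mean level of Ppara was 17.9 RPKM in WT females and 17.0 in ARE-Del females (-0.08 ± 0.18, limma adjusted p = 0.77), and at 14.8 and 13.0 in males (-0.19 ± 0.18, adjusted p = 0.504). Among 17 tested genes for PPAR-alpha, related receptors and their coregulators, 7 rose and 0 fell in females, and 6 rose and 1 fell in males. Of all tested genes, 25.8% rose in females and 19.5% in males. The coactivator genes Ncoa3 (0.41 ± 0.09 and 0.30 ± 0.09) and Med1 (0.30 ± 0.08 and 0.31 ± 0.08) rose in both. In males Lpin1, a phosphatidate phosphatase that also coactivates PPAR-alpha, rose by 1.71 ± 0.39. Its male means were 2.79 ± 0.73 RPKM in WT and 13.85 ± 11.87 in ARE-Del, so the ARE-Del libraries differed widely. Pparg, the receptor of the adipocyte programme, changed by -0.95 ± 0.13 in males. Without female ARE-Del 2, 5 rose in females. Under median-of-ratios scaling 4 rose in females and 2 in males, and under quantile normalization 2 and 1. Of all 10568 tested genes, 2088 rose in females and 1264 in males under the first, and 1616 and 923 under the second. Under these scalings the shares of the 17 that rose were near or below those of all genes.

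Other PPAR-alpha targets went down more often than up in females. Of 44 tested, 16 fell and 3 rose in females (median change -0.32, against 0.09 over all tested genes), and 5 fell and 2 rose in males (median -0.15, against 0.10). Among all tested genes 5.53% fell and 25.8% rose in females, and 2.04% fell and 19.5% rose in males. The largest falls in females were those of Acaa1b, a peroxisomal thiolase (-1.31 ± 0.17, from 189.5 to 76.4 RPKM), Retsat, a retinol saturase (-1.16 ± 0.18), and Aldh3a2, a fatty aldehyde dehydrogenase (-0.99 ± 0.13). In males Aldh3a2 (-0.70 ± 0.13), Cd36, a fatty acid carrier (-0.69 ± 0.18), Acaa1b (-0.63 ± 0.17) and Mgll, which hydrolyses monoacylglycerols (-0.50 ± 0.16), were among those that fell. Acaa1b, Aldh3a2 and Mgll were called in both sexes.

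A few targets went up. Ucp2, a mitochondrial carrier also abundant in macrophages, rose by 1.33 ± 0.11 in females and 0.90 ± 0.11 in males. Pnpla2, the main triglyceride lipase, rose by 0.75 ± 0.10 and 0.68 ± 0.10. The macrophage markers given above rose with them, and their part in the Ucp2 change was not tested. Cpt1a, the entry step of mitochondrial beta-oxidation (0.42 ± 0.15, adjusted p = 0.0568 in females), did not pass. Without female ARE-Del 2, 10 targets fell and 4 rose in females, and 9 fell and 2 rose in males. The number that fell depended on scaling: 28 in females and 18 in males under median-of-ratios scaling, and 25 and 15 under quantile normalization. Of all 10568 tested genes, 1503 fell in females and 778 in males under the first, and 2497 and 1153 under the second. More genes of the whole table were thus called as falling under these scalings too. In limma, 0 of the 44 passed for a difference between the sexes' changes, where 0.568% of all tested genes did.

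**Figure D5:**
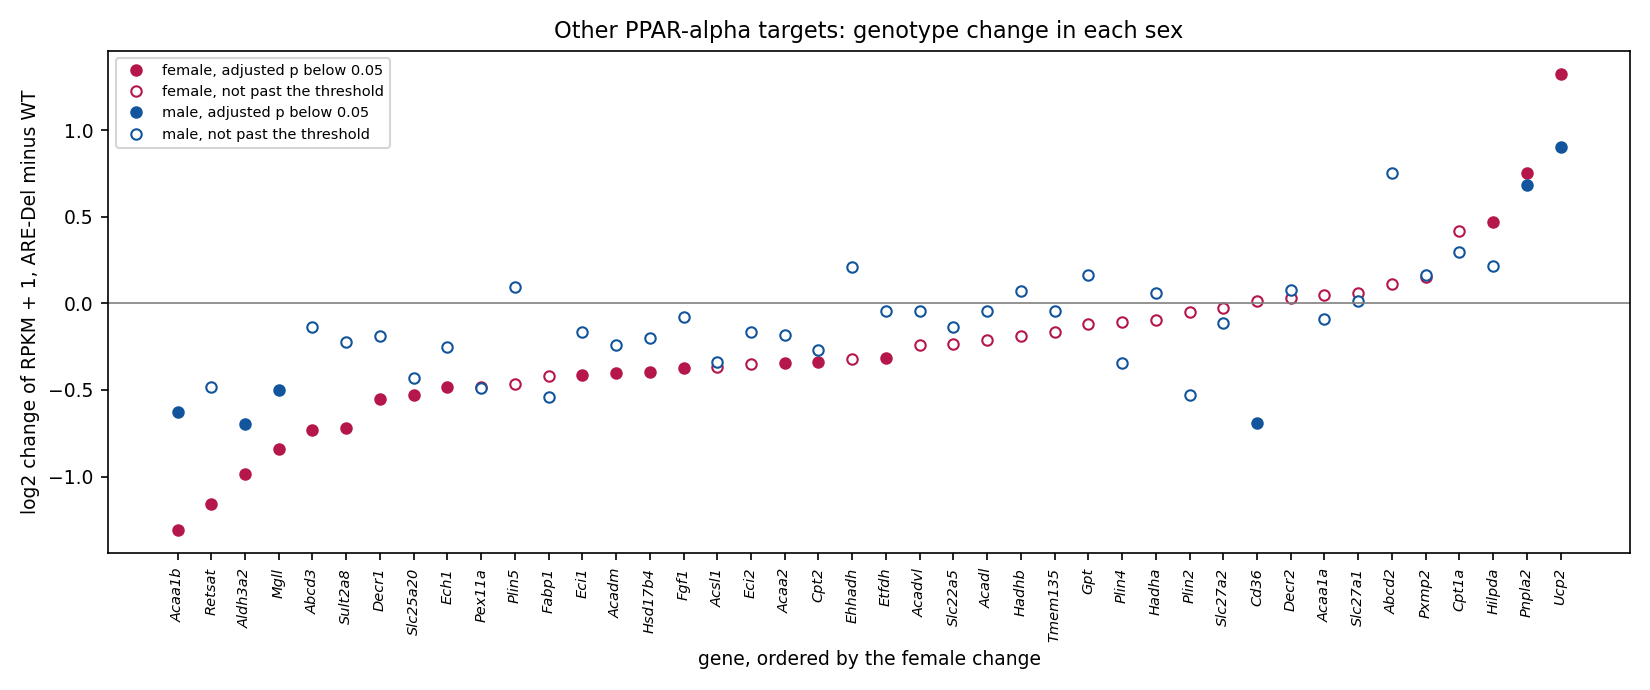
Log2 change of RPKM + 1 from WT to ARE-Del for 42 of the 44 tested PPAR-alpha targets outside the 9 genes, ordered by the female change; filled points passed an adjusted p of 0.05 in limma. In females 16 filled points lie below 0 and 3 above; in males 4 lie below and 2 above.

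Relatives of the 9 genes were counted in the same way. Of 8 other tested Cyp4 genes, 2 rose in females and 3 in males and 0 fell, where 25.8% of all tested genes rose in females and 19.5% in males, so the female share was near that of all genes. Leaving out female ARE-Del 2 gave 2 in females and 4 in males. Cyp4f16 (0.90 ± 0.09 in females and 0.49 ± 0.09 in males) and Cyp4f18 (0.62 ± 0.08 and 0.40 ± 0.08) rose in both. Cyp4f18 is a hydroxylase of leukocytes and stood below 0.8 RPKM in each group mean.

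Of 16 thioesterase, vanin, pantothenate kinase and CoA hydrolase genes, 7 fell and 1 rose in females, and 0 fell and 1 rose in males. The share of all tested genes that fell was 5.53% in females and 2.04% in males. Acot3, 80.2% identical to Acot1, fell by 1.32 on the log2 scale in females (-1.32 ± 0.42, from 16.5 ± 2.99 to 7.80 ± 7.51 RPKM), and without female ARE-Del 2 its change was -0.81 and missed the threshold (adjusted p = 0.108). Nudt7, a peroxisomal CoA hydrolase, changed by -1.16 ± 0.22, or -1.03 without that library (adjusted p = 0.00917). Acot2 did not pass (-0.22 ± 0.15). Acot9, a mitochondrial thioesterase, rose by 0.77 ± 0.09 in females and 0.63 ± 0.09 in males. Without female ARE-Del 2, 2 of the 16 fell in females in place of 7. Of 9 genes of the pyruvate dehydrogenase complex and its regulators, 2 fell in females (Pdk1 -0.35 ± 0.12 and Pdhb -0.26 ± 0.09) and 0 without that library. In males 0 of 9 passed in limma, nor did any reach an unadjusted p below 0.05. Under quantile normalization 8 of the 9 fell in females and 1 in males, where 2497 and 1153 of all 10568 tested genes fell. The male share was near that of all genes.

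The genes outside the 9 whose profiles over the 12 libraries were nearest to each of the 8 tested genes, by root-mean-square (RMS) difference of centred log2(RPKM + 1), differed between the pair and the rest. This is a description over 12 libraries that share groups. For Cyp4a12a and Cyp4a12b the nearest were Elovl3 (RMS difference 0.63 and 0.58) and Hsd3b5 (0.76 and 0.66), both male-biased liver genes, and the 2 differed from each other by 0.68, less than Cyp4a12a did from Hsd3b5. For Cyp4a14 the nearest were Pcp4l1 (0.68) and G0s2, an inhibitor of the lipase encoded by Pnpla2 (0.92), while Cyp4a10 (0.78) and Vnn1 (0.87), from among the 9, were nearer than G0s2. For Cyp4a10 they were Mme and Cyp2c37 (both 0.39). For Vnn1 they were Dio1 (0.38), a deiodinase, and Mod1 (0.49), a malic enzyme. For Acot1 the nearest were Ugt3a1 and Cyp2e1 (both 0.33). For Pdk4 it was Acot2 (0.24), and for Angptl4, leaving out 1 predicted gene, Crot (0.31), a carnitine acyltransferase of peroxisomes. The profiles of Pdk4 and Angptl4 themselves varied by 0.41 and 0.44 about their means, against 1.35 for Cyp4a14.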

How the data were processed

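The table deposited by the authors holds RPKM values. The submitters' processing notes name Trimmomatic 0.30, TopHat2 2.0.8, Partek and GenomeStudio 6.6, and the mm9 assembly. Neither the counting rule nor the use of strand is given in the sources used here. Depth in reads is unknown.

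Genes of at least 0.5 RPKM in at least 3 libraries (10568 of 19852) were tested. Log2(RPKM + 1) was fitted with limma 3.58.1 (run in R 4.3.3), one mean for each of the 4 groups and variances moderated along the mean, and p-values were adjusted by Benjamini-Hochberg within each of 5 comparisons. The spread of a gene was estimated over all 4 groups together, so an SE in one sex also depends on libraries of the other. A fold change on this scale understates that of low genes. The code was tested on simulated data. Fgf21 and ratios were tested by exact permutation, 2-sided. Errors are SD for RPKM and SE for log2 changes. The labels do not say that the libraries of a group came from separate animals, so p-values measure the spread between these libraries.

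Of 315 entries in 20 gene lists, 268 matched by symbol and 12 and 11 by an older symbol or synonym. Another 10 sit in joined identifiers and 14 had no match, and 250 were tested. From each list the called genes with the largest change, or else the most abundant, were named. The 9 genes and the lists were chosen with earlier results of these data known, and list counts under other scalings and without female ARE-Del 2 were added after seeing the data, as were values of the Cyp4a sum and of named genes without that library. Tables were made in Python 3.11.15 (numpy 2.4.6, pandas 2.3.3) and figures with matplotlib 3.10.9. Most genes of the lists are counted without being named, some are not reported here, and lists that bear on no result of the 9 genes are left out of the text.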

Additional observations from a re-analysis of the deposited data

How the results depend on the processing

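Alternatives were other pseudocounts, no filter or a filter of 1 RPKM, 2 other scalings, no variance trend, a fit on the compared groups only, a replicate block and leaving out each of 12 libraries. The cause of the shifts was not tested unless stated. As deposited, 82.3% of female and 90.5% of male genotype calls were up, against 58.15% and 61.9% under median-of-ratios scaling and 39.3% and 44.5% under quantile normalization, which moved the median gene by -0.16 in females and -0.14 in males. Relative to the median gene, Cyp4a14 stood at -2.92 in females and -1.82 in males. The falls of Cyp4a14, Vnn1 and Acot1 in females were called in all 9 other settings and all 12 left-out libraries.

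With no filter, 0 of the 9 genes were called in males. Called genes for the interaction, 60 as reported, were 14 and 15 with pseudocounts of 0.1 and 0.5, 30 with no filter, 32 with the filter of 1 RPKM, 106 with quantile normalization and 39 with no variance trend. Leaving out 1 library gave 0 to 74 genes there, 1259 to 2481 for the male genotype, 525 to 1116 between WT sexes and 1367 to 2494 between ARE-Del sexes, and 1 to 3 of the 8 genes for the male genotype. The interaction had 0 genes without male WT 1.

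The sign changed, without a call on either side, under quantile normalization for Cyp4a12a (-0.009) and Cyp4a12b (-0.022) in females, Pdk4 in males (-0.015), Angptl4 between WT sexes (-0.005) and Pdk4 between ARE-Del sexes (-0.001). Angptl4 became -0.088 and -0.082 in females, -0.068 and -0.062 in males and -0.017 and -0.025 between ARE-Del sexes under median-of-ratios and quantile scaling. The interaction of Cyp4a12b became 0.024 with a pseudocount of 0.1. Leaving out 1 library also turned the sign in the female genotype comparison for Cyp4a12a (-0.217 to 0.366) and Angptl4 (-0.283 to 0.493). In males it did so for Pdk4 (-0.062 to 0.314) and Angptl4 (-0.136 to 0.355). For the interaction the ranges were -0.012 to 0.57 for Cyp4a12a, -0.618 to 0.263 for Vnn1 and -0.346 to 0.43 for Angptl4. Between WT sexes they were -0.403 to 0.145 for Vnn1, -0.044 to 0.575 for Acot1, -0.425 to 0.35 for Angptl4 and -0.285 to 0.037 for Fgf21. Between ARE-Del sexes they were -0.027 to 0.767 for Cyp4a14, -0.713 to 0.168 for Vnn1, -0.271 to 0.324 for Pdk4 and -0.288 to 0.204 for Angptl4. The stratified difference of Fgf21 ranged from -0.375 to -0.214. That of the Cyp4a14 to Cyp4a10 ratio, an alternative added after seeing the data, ranged from -1.589 to -1.411 and kept its call.

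Replicate numbers did not pair the samples: deviations of same-numbered libraries correlated at -0.291 to 0.245 (18 pairs), and of others at -0.247 to 0.23 (36 pairs). With the replicate block, 4 of the 8 genes were called between WT sexes (2 as reported) and 32 genes for the interaction. It changed no other call of the 8 genes. Genes called with the block were 3019 and 2024 for the female and male genotype, 845 between WT sexes and 2063 between ARE-Del sexes.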

Other observations

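Angptl4 inhibits lipoprotein lipase, the enzyme that releases fatty acids from circulating lipoproteins, and the gene of that enzyme changed where Angptl4 did not pass. Lpl rose by 2.94 ± 0.27 in females (from 1.92 ± 0.57 to 21.2 ± 1.74 RPKM, limma adjusted p = 4.8e-06) and by 1.38 ± 0.27 in males (from 2.22 ± 0.46 to 7.95 ± 4.22 RPKM, adjusted p = 0.00345). The female change of Lipc, hepatic lipase, was -0.56 ± 0.12. Without female ARE-Del 2 the female changes were 2.97 for Lpl (adjusted p = 3.32e-05) and -0.44 for Lipc (adjusted p = 0.0115). Of 12 tested genes of lipoprotein lipase handling, 1 rose and 1 fell in females and 2 rose in males, and 2 rose and 2 fell in females without that library. Among all tested genes 25.8% rose and 5.53% fell in females, and 19.5% rose in males. Monocyte and macrophage markers rose in the same libraries (8 of 8 tested in females and 7 of 8 in males), and their part in the Lpl change was not tested. Adipocytes also express much Lpl. The summed RPKM of 9 adipocyte markers ran from 190.1 to 270.3 in female WT, from 320.9 to 417.7 in female ARE-Del, from 97.0 to 130.4 in male WT and from 207.1 to 345.6 in male ARE-Del, and most of it was Pck1, which hepatocytes express. Of 4 tested, 2 rose in females (Fabp4 and Lipe), and in males 2 rose (Fabp4 and Pck1) and 1 fell (Pparg). Adipoq, the defining marker, was at 0 to 0.282 RPKM over all 12 libraries. The part of these genes in the Lpl change was not tested.

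Pdk4, Fgf21 and Angptl4 are known to rise in fasting. Pdk4 and Angptl4 were not called for genotype here, and Fgf21 was too low for the test across genes. Of 19 tested genes of fasting and glucocorticoid action, 5 rose in females and 8 in males, and 0 fell, where 25.8% of all tested genes rose in females and 19.5% in males. The female share was near that of all genes. Without female ARE-Del 2, 4 rose in females and 9 in males. Igfbp1, which binds insulin-like growth factors, rose by 2.90 ± 0.39 and 2.37 ± 0.39 (from 8.16 to 64.2 RPKM in females and from 7.50 to 44.9 in males), and Cdkn1a, a cell cycle inhibitor, by 1.12 ± 0.22 and 1.68 ± 0.22. In males Pck1, of gluconeogenesis, rose by 1.44 ± 0.21 and Fkbp5, a glucocorticoid-induced gene, by 1.28 ± 0.26. Under quantile normalization 5 rose and 2 fell in females and 4 rose in males. Of all 10568 tested genes, 1616 rose and 2497 fell in females and 923 rose in males under that scaling. The part of feeding state or glucocorticoids in the changes of these genes was not tested.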
